A study of Mus musculus with 2 samples.

Results

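The 35 genes described here act in meiosis, the pair of divisions that makes gametes, and they were chosen by symbol from the gene rows of a table of testis nuclei. Of these, 34 had a row under the listed symbol, among 32285 genes in all. *Iho1* had none, and RefSeq lists it under the older symbol *Ccdc36*, whose row is given apart. Testes were taken from male mouse embryos at E14.5, a stage counted in days from conception, and read by 10x multiome, an assay that measures RNA and open chromatin (ATAC, a transposase that cuts accessible DNA) in the same nucleus. All embryos carried *Nr5a1-cre*, a Cre recombinase under *Nr5a1* sequences, a gene of somatic gonadal cells, and *Rosa-tdTomato*, its reporter. The number of embryos in the pool is unknown here. There were 2 libraries, 1 of RNA and 1 of ATAC, with shared barcodes, so no value below has a replicate or a test, and every 95% interval is exact and covers counting error only.

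In meiosis the germ cell builds an axis along each chromosome, cuts its own DNA, repairs the breaks on the partner chromosome and zips the partners together in the synaptonemal complex. In the mouse, germ cells of the fetal ovary enter meiosis before birth. Those of the fetal testis stop dividing instead and enter meiosis only after birth.

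The deposited matrix held 9833 barcodes with 122049390 UMIs, each UMI being 1 RNA molecule, and 109215 peaks of open chromatin, and the fragment list held 58448458 unique fragments. After filters on quality and doublets, 7198 nuclei remained, and clusters of both assays, made without these genes and without their promoter peaks, placed 976 of them (13.6%, interval 12.8% to 14.4%) in the germ-like class. The class was named by *Ddx4*, *Dazl* and *Mael*, and at least 1 UMI of these was found in 98.6%, 99.2% and 78.4% of its nuclei. The other 6222 nuclei are called somatic. Germ-like nuclei were deeper, with a median of 15522 UMIs against 7340 in somatic nuclei, so levels are given as CPM, the UMIs of a gene per 1000000 UMIs of the class. RNA of *Ddx4*, *Dazl* and *Mael* was also found in somatic nuclei, at 1.74% of its germ-like level. This share was 4.83% with classes from chromatin alone and 0.896% at the automatic doublet threshold of Scrublet, a caller of droplets with more than 1 nucleus.

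RNA of most of these genes was higher in germ-like nuclei. The summed level of the 34 genes was 3794 CPM in germ-like nuclei and 288 CPM in somatic nuclei, a ratio of 13.2 (12.9 to 13.4). Different genes weighed most in each sum. *Sycp1*, *Ankrd31* and *Sycp2* gave 1100, 427 and 411 CPM of the germ-like sum. *Ythdc2*, *Dmc1* and *Mlh3* gave 65.3, 45.5 and 37.3 CPM of the somatic sum. A gene was called when its germ-like level was at least 4 times the somatic level, with at least 20 UMIs. By this rule 24 of the 34 were called, where 10.9% of 19403 genes tested were called in the same direction. The genes were chosen with earlier results of these data known. Counts called here and at promoters below are thus not independent of that choice. None of the 34 was at most 1/4 of the somatic level, where 4.77% of all genes tested were. The median log2 ratio was 4.03 for the 34 genes and 0.05 over all genes tested. All 34 had UMIs in germ-like nuclei. The somatic level ran from 0.526% of the germ-like level for *Rnf212* to 122% for *Msh5*. It was under the 1.74% of the markers for 9 genes, *Rnf212*, *Ankrd31*, *Spata22*, *Sycp1*, *Tex11*, *Spo11*, *Syce1*, *Tex12* and *Terb2*, and for 11 its interval reached that share or lower. No ratio of the 9 could be given once that share was subtracted, so their order by ratio rests on somatic RNA no higher than that of the markers.

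Nuclei differed in how much of this RNA they held, but nearly every germ-like nucleus held some. When each nucleus was thinned to 2000 UMIs, germ-like nuclei had a median of 8 UMIs of these genes (quartiles 6 and 11, highest 25) from a median of 5 genes, and 99.4% had at least 1. Somatic nuclei had a median of 0 and a highest count of 9, and 38.6% had at least 1, after 75 shallower nuclei were left out.

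**Figure D1:**
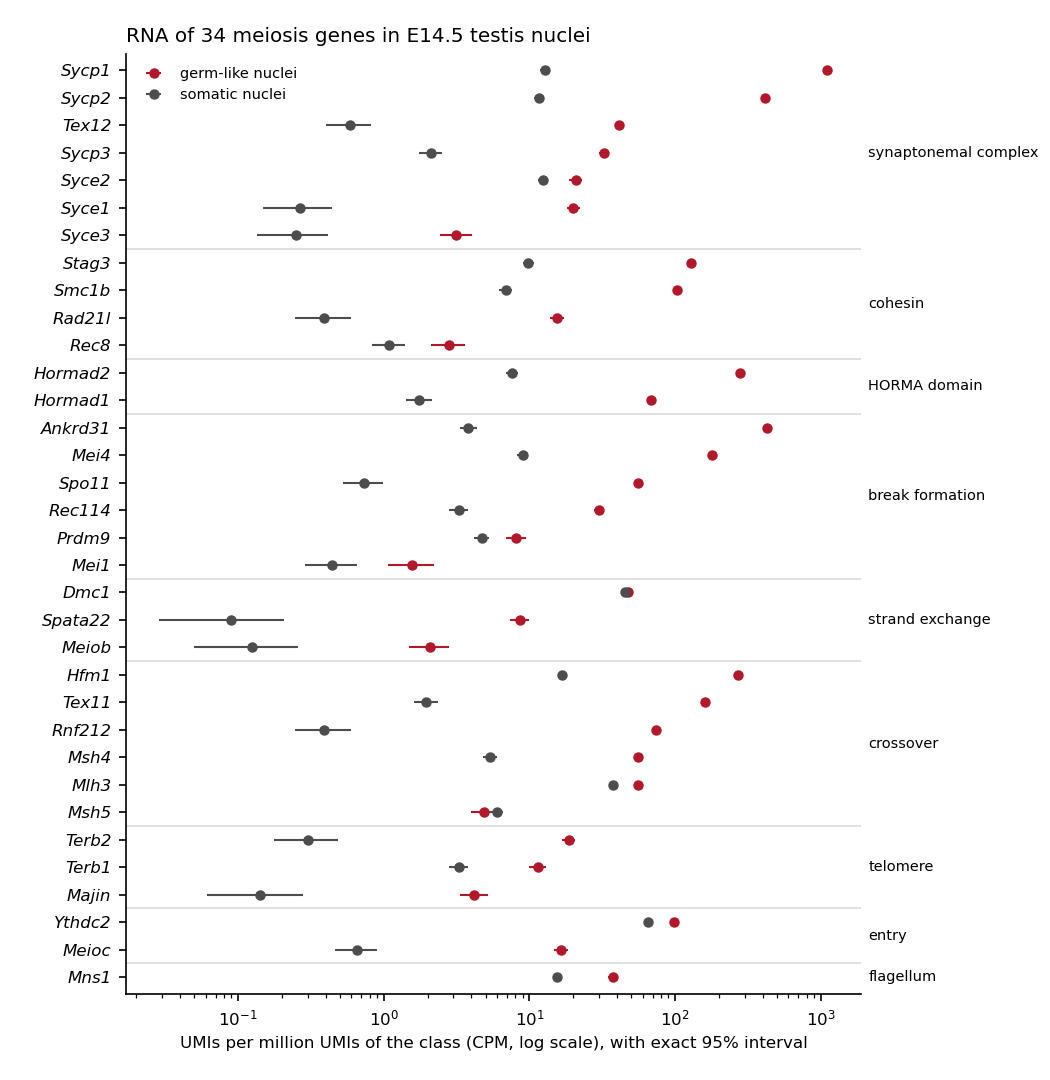
Level of each of the 34 genes in germ-like (red) and somatic (grey) nuclei, in CPM on a log axis, grouped by role, with exact 95% intervals that are often narrower than the point. The red point lies far to the right of the grey one for 24 genes, while *Dmc1*, *Msh5*, *Mlh3*, *Ythdc2* and *Syce2* have points close together.

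Promoter sequences are shown for 4 genes whose promoter was called germ-like and had the most germ-like fragments, and for *Msh5*, whose promoter was most even between the classes. Each has 250 bases before and 50 after the start, from RefSeq on GRCm38.p6, the build mm10 of the files, and overlaps a promoter peak. *Sycp1* is at chr3:102936051-102936350, minus strand, *Sycp2* at chr2:178407609-178407908, minus strand, *Sycp3* at chr10:88459337-88459636, plus strand, *Meioc* at chr11:102665335-102665634, plus strand, and *Msh5* at chr17:35046573-35046872, minus strand. Capitals mark the matches, on either strand, to 2 of the 3 motifs searched, CACGTG (an E-box) and GGCGGGAA (an E2F type of site).
Sycp1: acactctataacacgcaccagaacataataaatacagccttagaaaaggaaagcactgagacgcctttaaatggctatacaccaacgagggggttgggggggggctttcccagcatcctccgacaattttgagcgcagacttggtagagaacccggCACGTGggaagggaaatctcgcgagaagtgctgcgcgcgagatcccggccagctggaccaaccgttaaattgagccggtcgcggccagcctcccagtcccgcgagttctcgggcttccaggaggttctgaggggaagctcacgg
Sycp2: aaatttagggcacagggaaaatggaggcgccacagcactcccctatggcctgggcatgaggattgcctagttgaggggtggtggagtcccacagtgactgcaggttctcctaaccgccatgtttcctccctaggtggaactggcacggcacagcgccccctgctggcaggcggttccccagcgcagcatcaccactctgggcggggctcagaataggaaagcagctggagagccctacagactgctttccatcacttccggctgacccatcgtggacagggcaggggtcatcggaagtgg
Sycp3: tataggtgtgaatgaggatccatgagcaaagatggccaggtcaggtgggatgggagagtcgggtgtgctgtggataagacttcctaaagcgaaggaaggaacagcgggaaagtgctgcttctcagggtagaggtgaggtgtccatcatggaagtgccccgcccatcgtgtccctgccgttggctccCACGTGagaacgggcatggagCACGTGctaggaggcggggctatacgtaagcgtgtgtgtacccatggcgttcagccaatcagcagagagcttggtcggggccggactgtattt
Meioc: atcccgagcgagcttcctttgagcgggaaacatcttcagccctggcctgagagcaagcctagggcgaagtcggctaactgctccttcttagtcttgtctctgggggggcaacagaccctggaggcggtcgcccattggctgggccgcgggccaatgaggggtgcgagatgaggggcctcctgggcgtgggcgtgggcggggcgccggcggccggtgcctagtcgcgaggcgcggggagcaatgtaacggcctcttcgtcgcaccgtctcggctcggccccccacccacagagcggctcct
Msh5: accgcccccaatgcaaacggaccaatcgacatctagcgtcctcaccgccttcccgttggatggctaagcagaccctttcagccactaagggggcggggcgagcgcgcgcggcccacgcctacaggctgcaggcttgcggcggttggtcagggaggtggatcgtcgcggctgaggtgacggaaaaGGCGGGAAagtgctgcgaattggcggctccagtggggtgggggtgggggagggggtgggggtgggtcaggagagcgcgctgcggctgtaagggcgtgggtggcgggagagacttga

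The E-box stood once in the *Sycp1* promoter and 2 times in that of *Sycp3*, and the E2F type of site stood in that of *Msh5*. RefSeq promoters were matched for 28 of the 34 genes, and those of *Msh4*, *Mei1* and *Prdm9* lie outside the peak of the gene. Of the 15 matched promoters called germ-like below, 6 (40%) held CACGTG and 4 (26.7%) held GGCGGGAA. Of 12 matched promoters with a peak but no call, 1 (8.33%) held CACGTG and 1 held GGCGGGAA. Of all 32851 promoters of this length, 7.15% held CACGTG and 2.19% held GGCGGGAA. Among the 11765 promoters rich in CpG, with at least 0.6 of the CpG count their bases would give, the shares were 11.3% and 4.78%. The third motif, TGACGTCA (a cAMP response element), was in none of the 28 and in 1.79% of all promoters. *Rnf212*, *Tex12* and *Hormad1* held both the E-box and the E2F type of site. The median CpG count of the 28 promoters was 18, against 7 over all promoters.

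Of the 7 genes of the synaptonemal complex, 6 were called in RNA. *Sycp1* encodes the transverse filament that spans the complex, and its level was 1100.3 CPM (1086 to 1115) in germ-like and 12.8 CPM in somatic nuclei, a ratio of 85.9 (79.8 to 92.7). The counting interval does not cover the choice of classes. This ratio was 23.4 with classes from chromatin alone, where the 3 markers stood in somatic nuclei at 4.83% of their germ-like level. It was 189 with nuclei gated on *Ddx4*, *Dazl* and *Mael*. The gate took nuclei with at least 5 UMIs of these genes as germ-like and with 0 as somatic. Somatic nuclei with any of this RNA were left out, so higher ratios by the gate follow in part from its construction. At 2000 UMIs per nucleus, 81.6% of germ-like and 1.64% of somatic nuclei held a *Sycp1* UMI. Per kb of gene span, the germ-like level was 9.36 CPM for *Sycp1* and 9.13 CPM for *Tex12*, the first and second of the 34 on this scale, and 6.59 CPM for *Sycp2*, the third. *Stag3* followed at 4.001 CPM, and the other genes of the complex lay between 0.155 and 2.39 CPM per kb. *Tex12* and *Syce1* encode central element proteins, and their ratios were 70.3 (49.7 to 103) and 75.4 (45.2 to 136), or 24.9 and 20.8 with classes from chromatin alone, and that of *Tex12* was 114 by the marker gate. *Sycp2* and *Sycp3* encode proteins of the lateral element. *Sycp2* stood at 411 against 11.7 CPM (ratio 35.2, or 17.6 with classes from chromatin alone) and *Sycp3* at 32.7 against 2.11 CPM (ratio 15.5). *Syce3*, also of the central element, was low at 3.15 against 0.248 CPM, and its ratio of 12.7 (7.03 to 24.5) rests on 64 and 14 UMIs. *Syce2* was the exception among these 7 genes, at 20.8 against 12.3 CPM (ratio 1.68, 1.49 to 1.90). Its level was 18.1 CPM in Sertoli-like nuclei and 42.4 CPM (24.7 to 67.8) in the 43 erythroid-like nuclei, from 17 UMIs in 12 nuclei, 10 of those UMIs in nuclei over the automatic doublet threshold.

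Meiotic cohesins, the rings that hold sister chromatids on the axis, were called in 3 of 4 cases. *Stag3* stood at 129 against 9.82 CPM (ratio 13.1), *Smc1b* at 103 against 6.86 CPM (ratio 15.0), and *Rad21l*, one of the closing subunits of the ring, at 15.5 against 0.390 CPM (ratio 39.8). *Rec8*, the other meiotic closing subunit, was low in both classes, at 2.80 CPM from 57 UMIs and 1.08 CPM from 61 UMIs, a ratio of 2.59 (1.77 to 3.78). Its level was 14.49 CPM (8.28 to 23.5) in the 88 supporting-like nuclei, led by *Pax8*, from 16 UMIs in 12 nuclei, 8 of those UMIs in nuclei over the automatic doublet threshold. Both HORMA domain genes, whose proteins bind unpaired axes, were called. *Hormad2* stood at 281 against 7.63 CPM (ratio 36.8) and *Hormad1* at 68.6 against 1.76 CPM (ratio 39.1). With classes from chromatin alone the ratios were 18.2 for *Hormad2*, 17.1 for *Hormad1* and 16.4 for *Rad21l*. The highest under any alternative were 102, 122 and 129, respectively, the last once the marker share was subtracted.

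Genes for making and placing the DNA breaks were called in 4 of 6 cases. *Spo11*, which encodes the protein that cuts the DNA, stood at 55.2 against 0.727 CPM (ratio 75.9, 55.6 to 106), and the ratio was 21.9 with classes from chromatin alone and 122 by the marker gate. *Ankrd31*, *Mei4* and *Rec114* encode partners of the break machinery on the axis. *Ankrd31* stood at 427 against 3.81 CPM, with a ratio of 112 (97.7 to 129) that was 21.8 with classes from chromatin alone and 248 by the marker gate, *Mei4* at 179 against 8.99 CPM (ratio 19.9, or 11.96 with classes from chromatin alone), and *Rec114* at 30.1 against 3.28 CPM (ratio 9.19). *Mei1*, of the same machinery, had 32 germ-like UMIs, or 1.57 CPM, and a ratio of 3.55 (2.04 to 6.25) whose interval holds the threshold of 4. *Prdm9*, which encodes the histone methyltransferase that marks where breaks fall, stood at 8.06 against 4.70 CPM, a ratio of 1.72 (1.40 to 2.09). The row *Ccdc36*, for *Iho1* of the break machinery, stood at 5.70 against 4.75 CPM, a ratio of 1.2 (0.957 to 1.498), with no promoter peak.

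Strand exchange split between germ-like RNA and RNA in every large class. *Dmc1*, the meiotic recombinase, stood at 47.6 CPM (44.7 to 50.7) in germ-like and 45.5 CPM (43.7 to 47.3) in somatic nuclei, a ratio of 1.05 (0.972 to 1.13). Its level was 83.3 CPM (77.5 to 89.6) in Leydig-like nuclei, above the germ-like level beyond counting error, and 56.4 CPM in progenitor-like, 54.8 CPM in mesonephric mesenchyme-like, 42.6 CPM in the unnamed largest class of 2526, 27.6 CPM in surface epithelium-like and 26.5 CPM in Sertoli-like nuclei. In Leydig-like nuclei 350 of 794 held a *Dmc1* UMI and no nucleus held more than 10. *Spata22* and *Meiob* encode partners on single-stranded DNA and were called, at 8.56 against 0.0887 CPM and 2.07 against 0.124 CPM. Their somatic levels rest on 5 and 7 UMIs, so the ratios of 96.5 (40.6 to 301) and 16.6 (7.41 to 43.9) are wide. For *Spata22* the ratio was 17.3 with classes from chromatin alone and 190.1 by the marker gate.

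Crossover genes were called in 4 of 6 cases. *Hfm1*, a helicase, stood at 269 against 16.8 CPM (ratio 15.99), and *Tex11*, an X-linked gene whose protein joins recombination sites, at 161 against 1.95 CPM (ratio 82.4, or 21.2 with classes from chromatin alone and 136 by the marker gate). *Rnf212*, which encodes a ligase-like protein at crossover sites, had a ratio of 190.1 (125 to 304), from 74.2 against 0.390 CPM. This was the largest of the 34, and by the marker gate it was 363. With classes from chromatin alone, where the marker share in somatic nuclei was 4.83%, it was 22.9, below the 25.2 of *Terb2*. *Msh4* and *Msh5* encode the subunits of 1 clamp, and their RNA differed. *Msh4* stood at 55.7 against 5.37 CPM (ratio 10.4, 9.13 to 11.8). *Msh5* stood at 4.87 against 5.94 CPM (ratio 0.819, 0.648 to 1.03) and reached 10.9 CPM (8.73 to 13.5) in progenitor-like nuclei, whose leading genes are of the cell cycle. *Mlh3*, an endonuclease that also serves mismatch repair, stood at 55.5 against 37.3 CPM, a ratio of 1.49 (1.38 to 1.60).

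The 3 telomere genes encode the complex that ties chromosome ends to the nuclear envelope. *Terb2* stood at 18.7 against 0.301 CPM (ratio 62.0) and *Majin* at 4.18 against 0.142 CPM (ratio 29.5, 14.3 to 70.4, from 85 and 8 UMIs), and with classes from chromatin alone the ratios were 25.2 and 18.1. By the marker gate that of *Terb2* was 103. *Terb1* missed the threshold at 11.4 against 3.28 CPM (ratio 3.48, 2.85 to 4.24). Its level in Sertoli-like nuclei was 9.18 CPM (7.41 to 11.2), which overlaps the germ-like interval of 9.99 to 13.0. *Meioc* and *Ythdc2* encode partner proteins that bind RNA at the entry to meiosis. *Meioc* was called, at 16.4 against 0.656 CPM (ratio 25.03), while *Ythdc2* was not, at 98.6 against 65.3 CPM (ratio 1.51, 1.43 to 1.59). *Mns1*, a gene of the sperm flagellum and of motile cilia, stood at 37.4 against 15.5 CPM (ratio 2.41). In the 43 erythroid-like nuclei *Mns1* reached 172 CPM (134 to 218), from 69 UMIs in 28 nuclei, of which 14 UMIs lay in nuclei over the automatic doublet threshold.

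The summed level of the 34 genes was similar in most of the 11 classes of somatic nuclei and higher in 2 small ones. It lay between 249 and 382 CPM in 9 classes, was 479.7 CPM in the 98 endothelial-like nuclei and was 872 CPM in the 43 erythroid-like nuclei. Summed RNA of *Ddx4*, *Dazl* and *Mael* moved with it, at 1.18% to 3.42% of the germ-like level in the 9 classes, 7.49% in endothelial-like and 11.7% in erythroid-like nuclei. *Sycp1* reached 102 CPM in endothelial-like and 204 CPM in erythroid-like nuclei. Of its UMIs there, 237 of 239 and 81 of 82 lay in nuclei over the automatic doublet threshold, and a single nucleus held 118 and 68 of them, respectively. In the 6 largest somatic classes *Sycp1* stood between 5.08 and 8.53 CPM. Other genes were uneven over the 6 largest classes. *Mei4* ranged from 0.328 CPM in mesonephric mesenchyme-like nuclei, from 1 UMI, to 17.5 CPM (15.0 to 20.2) in Sertoli-like nuclei. *Mns1* ranged from 4.49 CPM in Leydig-like to 31.8 CPM in progenitor-like nuclei, whose leading genes are of the cell cycle. In the unnamed class of 2526, whose best marker score was also for progenitors, *Mns1* stood at 4.95 CPM. *Hfm1* ranged from 6.85 CPM in Leydig-like to 31.4 CPM in surface epithelium-like nuclei.

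**Figure D2:**
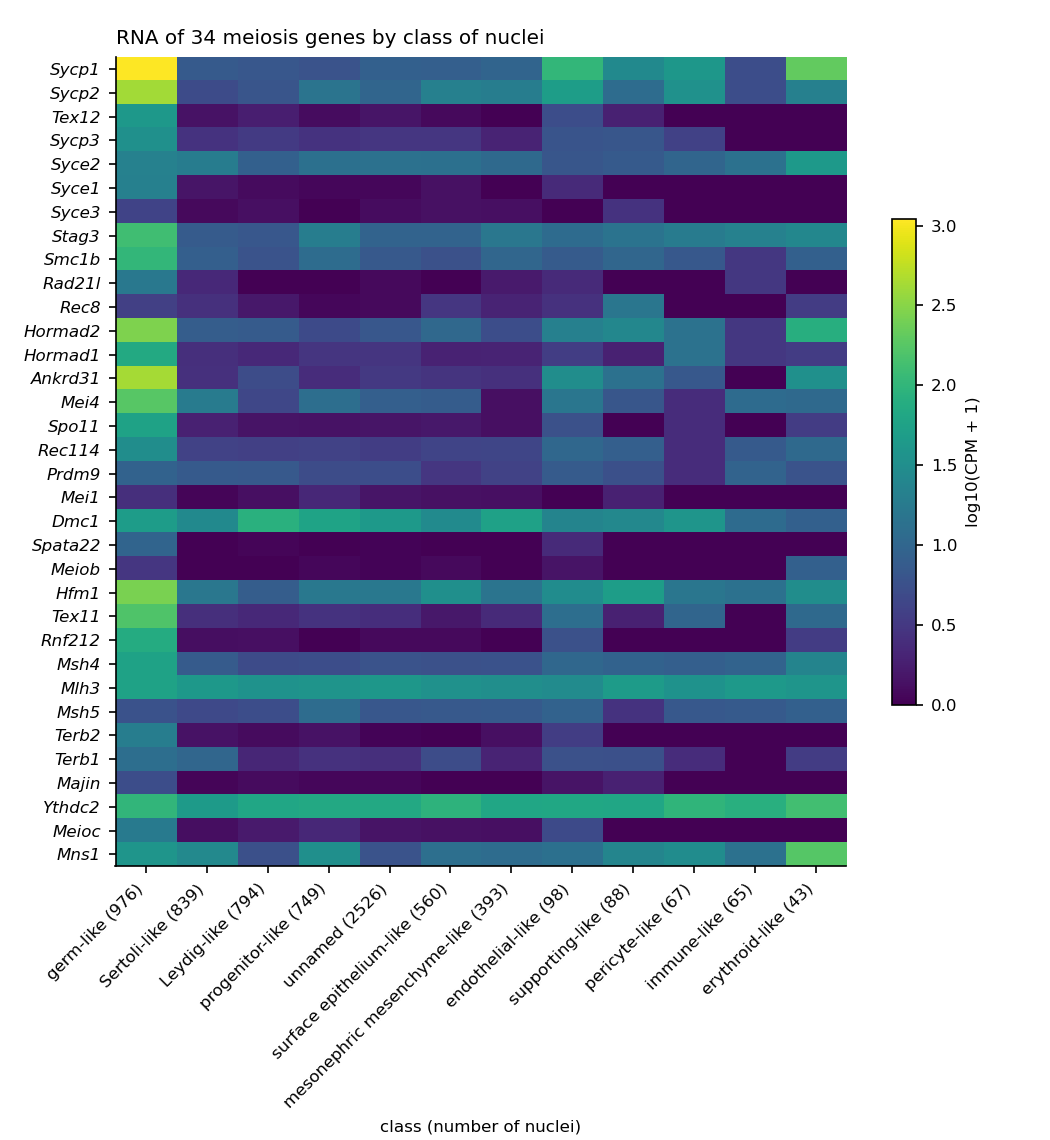
Level of the 34 genes (rows, grouped by role) in the 12 classes of nuclei (columns, with the number of nuclei), as log10(CPM + 1). The germ-like column is brightest for most rows, whereas *Dmc1*, *Mlh3* and *Ythdc2* are similar in shade across the large classes, with *Dmc1* brightest in Leydig-like nuclei at 83.3 CPM.

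Promoters were measured by unique ATAC fragments with a cut in a peak within 1 kb of the start of the gene, as FPM, the fragments per 1000000 fragments at peaks of the class. A promoter peak was present for 32 of the 34 genes, and *Rad21l* and *Tex11* had none. Of the 32, 17 had at least 4 times the somatic level in germ-like nuclei with at least 20 fragments, where 3.27% of 19252 genes with a promoter peak did. A further 7 (21.9%) had a ratio between 2 and 4, where 7.57% of all did, and 8 (25%) lay within 2-fold of even, where 83.7% of all did. No promoter was at least 2-fold higher in somatic nuclei, where 5.46% of all were by 2-fold and 0.784% by 4-fold. The median log2 ratio was 2.46 for the 32 promoters and 0.20 over all genes with a promoter peak. The ratio of summed fragments was 2.51 (2.39 to 2.63), and *Msh5*, *Stag3* and *Prdm9* gave 830, 733 and 669 of the 5014 somatic fragments in that sum. *Ddx4* and *Mael* had ratios of 17.8 (11.7 to 27.9) and 22.9 (13.8 to 39.7), while *Dazl*, with germ-like RNA 57.7 times the somatic level, had a ratio of 1.59 (1.29 to 1.96) over its peak. Within 250 bp of its start *Dazl* had 176 germ-like and 35 somatic cuts, a density 25.1 and 0.769 times that at 1.5 to 2 kb.

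Promoters of 6 of the 7 genes of the synaptonemal complex were called, and that of *Syce2*, with 95 and 194 fragments (ratio 2.36), was not. *Syce1* had 71 germ-like and 10 somatic fragments (ratio 34.3, 17.6 to 74.6), *Sycp1* 89 and 13 (ratio 33.1, 18.4 to 64.5) and *Tex12* 65 and 10 (ratio 31.4). The *Tex12* peak also lies within 1 kb of the start of *Il18*. The germ-like class held 2456447 fragments at peaks and the somatic class 11862503, so these counts fall the other way from the sizes of the classes. *Syce3* (ratio 21.1), *Sycp2* (20.8) and *Sycp3* (7.62) were also called, and *Sycp3* has 3 peaks of which the one centred at -1370 bp from the start had a ratio of 2.90. Outside this group, *Rnf212* (28.4), *Ankrd31* (20.6), *Hormad1* (19.3), *Terb2* (18.6), *Rec114* (13.1), *Hormad2* (11.02), *Meioc* (10.99), *Msh4* (8.43), *Majin* (8.21), *Spata22* (7.24) and *Mei1* (4.16) were called. The interval of *Mei1*, 2.60 to 6.603, holds the threshold of 4, and so does that of *Majin*, 3.55 to 20.1 from 17 and 10 fragments. The start of *Mei1* spans 12481 bp and that of *Rnf212* 25535 bp in the feature table. The *Rnf212* peak is centred -53 bp from its most upstream start. Those of *Mei1* are centred 89 and 10123 bp from its most upstream start, and the second can belong to another start in that span.

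RNA and promoter calls fell together for 25 of the 32 genes, 16 called in both and 9 in neither. No joint share over all genes is given here, so these counts cannot be set against a background. *Mei1* was called at the promoter alone, from a pair of peaks. The peak at its first start had 19 and 27 fragments (ratio 3.398), under the threshold, and a peak centred 10123 bp downstream had 18 and 16 (ratio 5.43). Called in RNA but not at the promoter were *Stag3* (promoter ratio 1.40), *Smc1b* (1.89), *Spo11* (1.95), *Meiob* (2.25), *Mei4* (2.58) and *Hfm1* (2.97). The peak of *Stag3* also lies within 1 kb of the start of *Gpc2*, and that of *Smc1b* within 1 kb of *Ribc2*. The fragments of these peaks cannot be assigned to either gene. For *Spo11* the peak at the start had 34 germ-like and 21 somatic fragments (ratio 7.82, 4.41 to 14.2), and a second peak centred at -1388 bp had 14 and 98 (ratio 0.690). Cuts within 250 bp of the start gave ratios of 8.28 for *Spo11*, 4.61 for *Hfm1*, 4.58 for *Terb1* and 3.83 for *Mei1*, so these 4 calls depend on the window. *Terb2* and *Spata22* share their peaks with *Patl2* and *Aspa*. *Tex11*, which had no peak, had 21 germ-like and 3 somatic cuts within 250 bp of its start.

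The 9 genes called in neither had promoter peak fragments in both classes, though no level was set for calling a promoter open. The peak of *Ythdc2* is centred 911 bp from its start. Within 250 bp of that start lay 7 germ-like and 53 somatic cuts, a density 2.80 and 2.72 times that at 1.5 to 2 kb. Somatic *Rec8* stood at 5.99 FPM. *Msh5* had 167 germ-like and 830 somatic fragments (ratio 0.972, 0.818 to 1.15), and *Prdm9*, with 150 and 669, had a ratio of 1.08 (0.901 to 1.29). The other ratios were 1.21 for *Mlh3*, 1.37 for *Ythdc2*, 1.69 for *Mns1*, 2.28 for *Dmc1*, 2.36 for *Syce2*, 2.52 for *Rec8* and 3.61 for *Terb1*. *Dmc1* thus had the higher promoter level in germ-like nuclei, 28.5 against 12.5 FPM, beside nearly even RNA. In Leydig-like nuclei, where its RNA was higher, the *Dmc1* promoter stood at 14.7 FPM from 18 fragments.

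**Figure D3:**
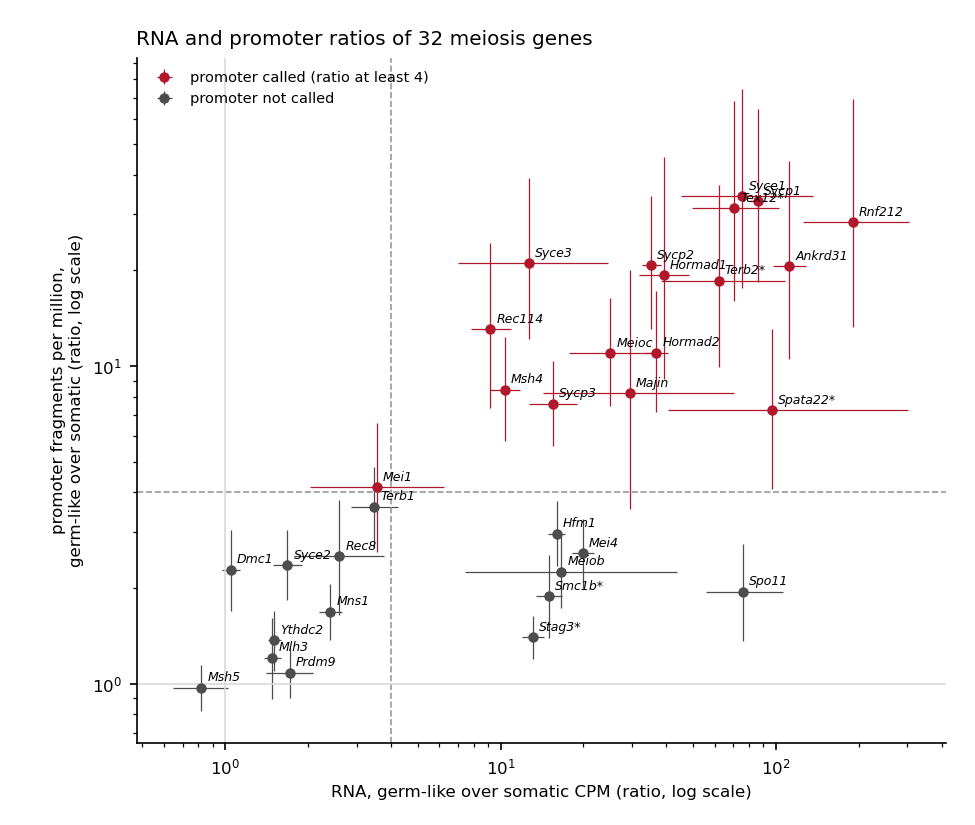
Ratio of germ-like to somatic RNA (horizontal, log scale) against that of promoter fragments (vertical, log scale) for the 32 genes with a promoter peak. Bars are exact 95% intervals and dashed lines mark a ratio of 4. A star marks genes whose peak also lies within 1 kb of the start of another gene. The 16 genes called in both lie at the upper right, 9 lie at the lower left, and 6 have high RNA ratios with promoter ratios between 1.40 and 2.97.

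Around the starts, the 17 called promoters showed a peak of cuts in germ-like nuclei and a low rise in somatic nuclei. They were called on fragments of the same peaks. This contrast, and its difference from promoters not called, was thus set by the selection and is no separate evidence. Density within 250 bp of the start was 19.6 times that at 1.5 to 2 kb in germ-like nuclei (1344 against 137 cuts) and 2.45 times in somatic nuclei (394 against 321 cuts). Over the 15 promoters not called the factors were 36.1 and 17.7. For the 6 genes called in RNA alone they were 40.8 and 13.8, and for the 9 genes called in neither 33.8 and 19.7. Of the 4087 somatic cuts at the starts of the 9, *Msh5* gave 1368 and *Prdm9* 986. The 6 were not alike, with somatic factors of 0.747 for *Spo11*, 5.60 for *Hfm1* and 16.1 to 63.2 for the other 4, and *Stag3* and *Smc1b*, whose peaks are shared, gave 458 and 249 of the 1449 somatic cuts at these starts.

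**Figure D4:**
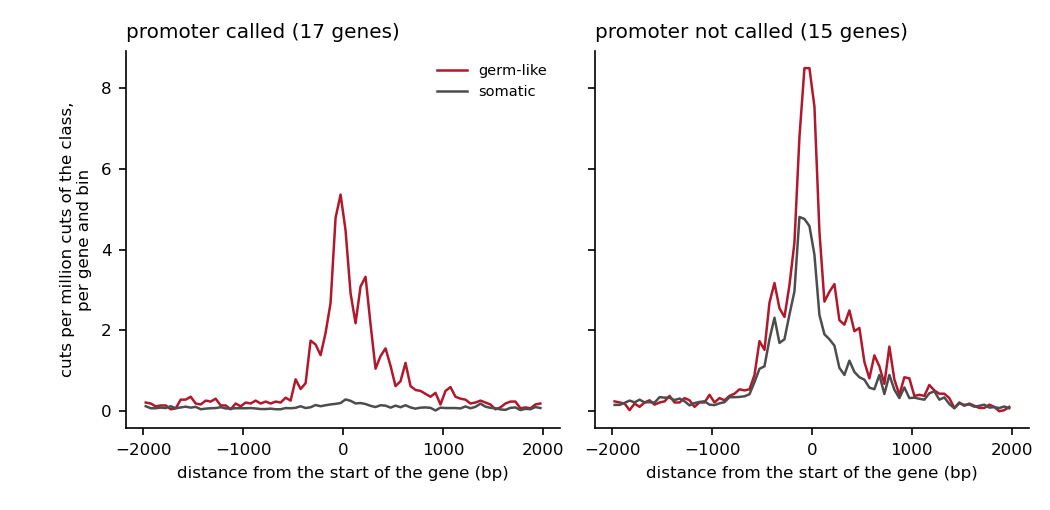
Transposase cuts per 1000000 fragments at peaks of the class, per gene and 50 bp bin, for the 17 promoters called (left) and the 15 not called (right). Bins are placed by distance from the start, and the axis label calls these fragments cuts. At the left the germ-like line peaks at 5.36 and the somatic line at 0.293, and at the right they peak at 8.49 and 4.81.

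Germ-like nuclei were then compared among themselves. At a finer resolution they fell into 3 clusters. The first, of 532 nuclei, had more RNA than the second of the proliferation genes *Mki67* (244 CPM) and *Top2a* (219.7 CPM), which were named after their values were seen. The second, of 380 nuclei, had 81.1 and 85.2 CPM of these. Of the class markers it had more *Mael*, at 283 against 137 CPM, and less *Ddx4*, at 458 against 582 CPM, and *Dazl*, at 699 against 974 CPM. The third had 64 nuclei with a median of 34284 UMIs, all over the automatic doublet threshold, and a summed level of 1802 CPM. It was left out of this comparison only. In the germ-like class used above, it holds 4318242 of 20336542 UMIs. The summed level of the 34 genes was 3975 CPM in the first and 4691 CPM in the second cluster, a ratio of 1.18 (1.16 to 1.198). Nuclei over the automatic doublet threshold were 64 of 532 in the first and 105 of 380 in the second cluster, and without them the ratio was 1.31 (1.29 to 1.33), with 7 genes at least 2-fold higher and 2 at most 1/2, where 11.7% and 7.10% of all genes tested were.

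Single genes moved both ways behind this small difference. In the second cluster 6 of 34 genes (17.6%) were at least 2-fold higher, where 12.8% of 15418 genes tested were, and 2 (5.88%) were at most 1/2, where 4.34% were, so neither count stands far from the background. *Spata22* went from 1.24 to 18.4 CPM (10 and 147 UMIs), a ratio of 14.8 (7.85 to 31.6), and *Rad21l* from 5.09 to 30.4 CPM (ratio 5.96, 4.27 to 8.51). *Rnf212* (ratio 3.52, 3.09 to 4.01) and *Mei4* (2.84, 2.63 to 3.07) rest on more UMIs, and *Meiob* (3.28) and *Mei1* (3.17) on few. *Ankrd31* stood at 330.3 and 650.3 CPM, a ratio of 1.97 (1.88 to 2.06). Lower in the second cluster were *Rec8*, at 4.60 and 1.004 CPM from 37 and 8 UMIs (ratio 0.218, 0.0878 to 0.476), and *Syce2* (ratio 0.444, 0.353 to 0.556), followed by *Smc1b* (0.506) and *Terb1* (0.544). *Hormad2* and *Spo11* were also lower there, with ratios of 0.596 and 0.621. The closing cohesin subunits *Rad21l* and *Rec8* thus differed in opposite directions between the clusters.

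**Figure D5:**
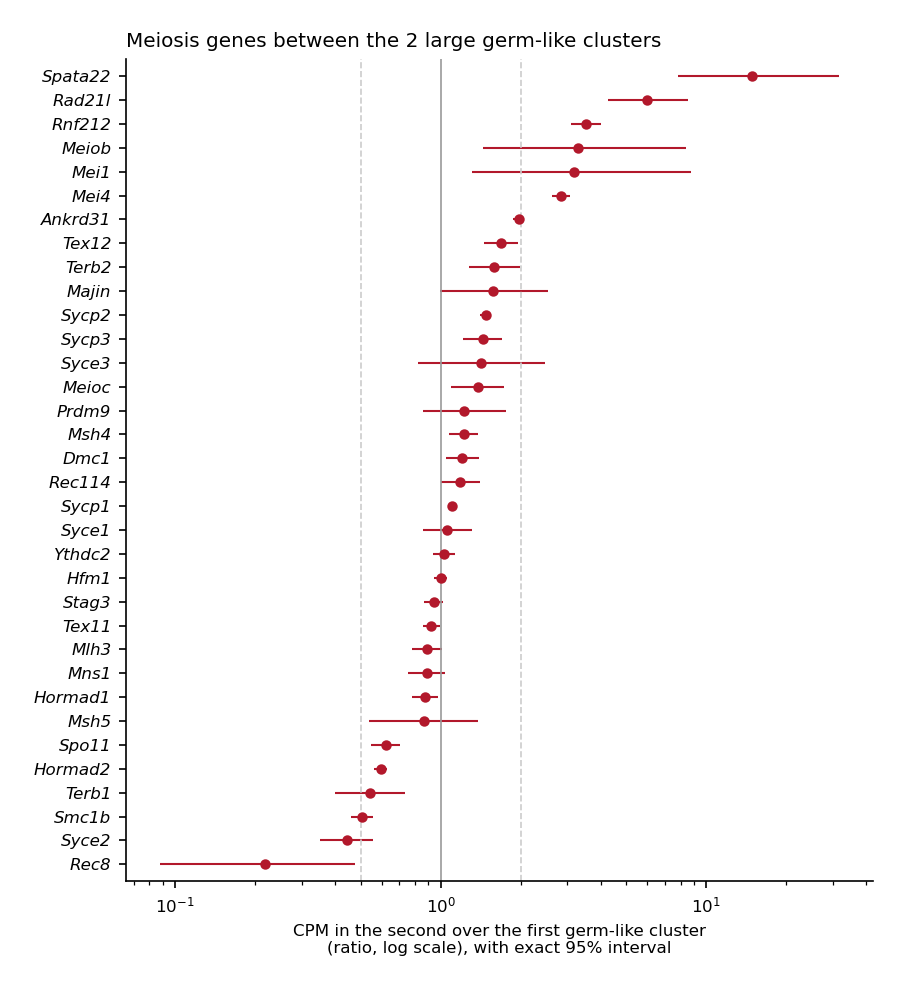
Ratio of CPM in the second to the first large germ-like cluster for the 34 genes, ordered by ratio on a log axis, with exact 95% intervals and dashed lines at 0.5 and 2. *Spata22*, *Rad21l* and *Rnf212* lie farthest right and *Rec8* and *Syce2* farthest left, while *Hfm1* lies at 1.003.

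A wider list of 43 meiosis genes was set beside the 34. Of these 38 had a row, and without *Mael*, which also named the germ-like class, 15 of 37 (40.5%) were called germ-like in RNA and 6 of 33 promoters (18.2%) were called. For the 34 genes the shares were 70.6% and 53.1%, and over all genes tested 10.9% and 3.27%. Both lists were chosen with earlier results of these data known, so differences between these shares may follow in part from the choice. The 6 with the highest germ-like level per kb were *Tex15* (10.9 CPM per kb), *Tex14* (9.74), *Mael* (4.85), *Cpeb1* (4.13), *Sgo2a* (3.56) and *Tex19.1* (3.37). *Tex15* and *Tex19.1* act in transposon control in germ cells, and *Cpeb1* in the translation of stored RNA. *Tex14*, which encodes a protein of the bridges between germ cells, stood at 1468 against 23.7 CPM (ratio 61.9), while *Sgo2a*, a protector of cohesin at centromeres, stood at 107 against 50.6 CPM (ratio 2.10) and was not called. *Stra8*, a gene induced by retinoic acid at meiotic entry, had 1.03 CPM (0.639 to 1.58) in germ-like nuclei and 0.0887 CPM in somatic nuclei, and is named here after its value was seen. *Rad51ap2*, also named after its value was seen, stood the other way, at 7.57 against 32.1 CPM (ratio 0.236, 0.199 to 0.279).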

How the data were processed

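The authors ran Cell Ranger ARC 2.0.1 on mm10 and deposited raw counts, in which genes hold UMIs and peaks hold transposase cuts, with a list of unique fragments. Peaks were called over all nuclei together. No source used here says whether counting used strand, so overlapping genes may share UMIs. The members and gene lists were chosen with earlier results of these data known.

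Following the study's methods, nuclei needed more than 500 genes, between 250 and 25000 fragments at peaks making up more than 20% of fragments, and UMIs with less than 10% mitochondrial, 10% ribosomal protein and 0.5% haemoglobin share. The study's limit on blacklist regions, its DecontX correction of free RNA and its scDblFinder doublet calls were not applied here. Of 7668 nuclei, the 470 of highest Scrublet score (scanpy 1.11.5) were removed. At the automatic threshold of Scrublet, 1363 (17.8%) would be doublets, and 233 germ-like and 660 somatic nuclei kept here lie over it.

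Clusters used weighted nearest neighbours in Seurat 5.3.0 (R 4.3.3) on 30 components per assay, with irlba 2.3.5.1, at a resolution of 0.3, or 0.6 for germ-like clusters. The members, the wider list and their promoter peaks were left out. A cluster took the class of highest mean marker z score and stayed unnamed where its top genes held more markers of another class. The largest somatic cluster (2526 nuclei) scored best for progenitors. It stayed unnamed because its top genes held the contractile marker *Myh11* and no progenitor marker.

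CPM have exact Poisson intervals, ratios exact conditional binomial intervals and shares exact Clopper-Pearson intervals at 95%. Only the ratio interval was checked, on counts simulated from the Poisson model it assumes. That check does not cover the uneven spread of UMIs over nuclei. Cuts usually come in pairs, so promoters were counted in fragments. Every member is named. Further genes were the 6 of the wider list with the highest germ-like CPM per kb, and promoters shown were the 4 called with most germ-like fragments and the 2 most even, of which *Prdm9* is not shown because its RefSeq window lies outside its peak.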

Additional observations from a re-analysis of the deposited data

How the results depend on the processing

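Across the alternatives for classes, doublets, depth and the marker share, 24 to 28 genes were called in RNA and 14 to 24 at promoters. In RNA 28 were called as UMIs per nucleus and 28 at a ratio of 2, where 20.2% of all genes tested were. The count was 26 at the automatic Scrublet threshold and 25 without the third germ-like cluster, an alternative chosen after seeing the data. At promoters 24 were called at a ratio of 2, where 10.8% of all were. With shared peaks left out, also chosen after seeing the data, 14 of 27 were called. The summed RNA ratio became 10.2 with classes from chromatin alone, and 13.4 from RNA alone and by a gate on the 3 markers. It was 11.9 with no doublets removed, 17.7 at the automatic Scrublet threshold and 12.4 under stricter minimums on nuclei. It was 30.3 as UMIs per nucleus, 16.2 with the marker share in somatic nuclei subtracted and 15.0 without the third germ-like cluster. Whether that share is free RNA was not tested. Single RNA ratios moved by more than 1.5 times for 15 of 34 genes with classes from chromatin alone (all lower). They did so for 8 by the gate, 12 of 33 at the automatic threshold and 7 of 25 with the marker share subtracted (all higher). In the last of these settings, the other 9 had no somatic RNA left and no ratio. Under stricter minimums 2 moved so far, with no doublets removed 1 (lower), and with classes from RNA alone none. *Rnf212*, at 22.9 with classes from chromatin alone and 479 at the automatic threshold, moved far beyond its counting interval, and so did *Sycp1* (23.4 and 236) and *Ankrd31* (21.8 and 254). Except at a ratio of 2, the counts called under these alternatives have no share over all genes beside them. The shares of 10.9% and 3.27% belong to the main setting. RNA calls were gained by *Mei1* and *Terb1* (4.08 and 4.33, automatic threshold). UMIs per nucleus multiplies every RNA ratio by 2.30, so the calls it adds (these and *Rec8* and *Mns1*) and the rise of *Msh5* over 1 (to 1.88) follow from its construction. Promoter calls changed for *Terb1* (4.18 with classes from chromatin alone, 4.93 at the automatic threshold), *Hfm1* (4.40, automatic threshold) and *Spo11* (7.82, peaks within 500 bp), besides those of the 250 bp window given above. Promoter ratios moved by more than 1.5 times for 5 of 32 genes at the automatic threshold, 2 with peaks within 500 bp and 6 in the window of 250 bp, and for none under the other class and nuclei settings or with cuts of the deposited matrix. The summed promoter ratio became 2.81 with classes from chromatin alone, 2.31 with no doublets removed, 3.19 at the automatic threshold and 2.67 in a window of 250 bp on each side of the start. The germ-like share became 12.4% from chromatin alone, 15.2% by the gate, 14.9% with no doublets removed, 11.8% at the automatic threshold and 15.1% under stricter minimums. The ratio of the second to the first germ-like cluster became 1.64 as UMIs per nucleus and 1.31 without nuclei over the automatic threshold, which was chosen after seeing the data. Ratios crossed 1 for *Dmc1* RNA (0.967, automatic threshold), the *Msh5* promoter (1.02, automatic threshold) and the *Ythdc2* promoter (0.638, window of 250 bp, which misses a peak centred 911 bp from the start). The other causes were not tested. The marker share in somatic nuclei was 4.83% with classes from chromatin alone, 1.59% from RNA alone, 2.13% with no doublets removed, 1.95% under stricter minimums and 0.896% at the automatic threshold. By the gate it was 0%, by construction. At a resolution of 0.3 the germ-like nuclei formed 1 cluster, so no ratio between clusters could be given there.

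No comparison between replicates was possible because each assay has 1 library. RNA and ATAC of a nucleus share a barcode, but RNA and promoter levels were compared here by class and not nucleus by nucleus. Depth limits the genes with few UMIs: *Mei1*, *Meiob*, *Rec8*, *Syce3* and *Majin* had 32 to 85 in germ-like nuclei. Nuclear RNA includes introns, so CPM per kb of gene span is an approximate scale.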

Other observations

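The 10 other germ cell genes set beside the markers did not share one somatic level. *Tdrd9*, of the piRNA pathway that silences transposons, stood in somatic nuclei at 0.721% of its germ-like level, below the 1.74% of *Ddx4*, *Dazl* and *Mael*. *Tdrd1* (2.78%), *Piwil2* (3.05%), *Rnf17* (3.71%), *Mov10l1* (4.50%) and *Sall4* (5.65%) followed. *Dnd1* (15.7%), *Pou5f1* (24.7%), *Nanos3* (78.0%) and *Kit* (181%), a receptor also used by other cells, stood much higher. The *Nanos3* promoter was nonetheless called, with a ratio of 6.61 (4.27 to 10.3), beside nearly even RNA, while that of *Kit* stood at 1.31. The annotated span of *Nanos3* reaches upstream of the start whose peak was counted. It also overlaps *Mir181c* and *Mir181d* on the same strand, and whether its somatic UMIs come from such transcripts was not tested. Promoters of *Mov10l1* (26.3), *Rnf17* (15.6), *Tdrd9* (15.3), *Piwil2* (14.49), *Pou5f1* (10.9) and *Tdrd1* (10.7) were called too, *Dnd1* reached 3.51, and *Sall4* had no promoter peak.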
